A study of Mus musculus with 9 samples.

Results

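The genes described here are 8 complement components and regulators, picked by symbol from the count table: C1qa, C1qb, C1qc, C2, C3, Cfb, Cfp and Serping1. All 8 had a row among the 23413 genes of the table, and 7 passed the filter on low counts. C2, with 1 count in all, did not, and Serping1 passed through its counts in a single group, so tests are given for the 6 members with counts in every group. RNA-seq was performed on cells that the study names Kupffer cells (KCs), the resident macrophages of the liver. They were sorted from mouse livers as F4/80+CD11b+ cells that were low for Gr1. The study's methods state that KCs make up most, but not all, of this sort. They name monocyte-derived macrophages as the remainder for a separate enrichment with anti-F4/80 beads. The mice were C57BL/6 males that were placed on their diets at 5 weeks of age for 8 weeks. NC denotes 2 mice on normal chow, and whether they were injected is not given in the sources used here. HFD denotes a high-fat diet. The vehicle group held 3 HFD-fed mice injected with the vehicle polyethylene glycol (PEG), and the DPI group held 4 HFD-fed mice injected with DPI (diphenyleneiodonium, which the study uses as an agonist of the receptor GPR3) at 2 mg/kg every 5 days from week 3. A field of the sample labels instead gives a treatment of cells lasting 24 h with DPI at 500 nM, but the grouping used here follows the design text and the study's methods. Each library is named by its group and by the mouse number in its label.

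Library totals lay between 3534325 and 15585775 counts, of which 27.002% to 44.5% fell on the ribosomal RNA precursor Rn45s. Of 11 KC markers, 5 had counts in every library: Adgre1, the gene of the sort marker F4/80, at 55.0 to 142 CPM (each gene's counts relative to the library size after scaling by edgeR's TMM factors), Id3 at 136 to 918 CPM, and Nr1h3, Slc40a1 and Cd163 at lower levels. The other 6 were absent from some libraries. Clec4f had 0 counts in 3 of 9 libraries, NC 1 among them, Cd5l in 2, Vsig4 and Timd4 in 5, Folr2 in 6 and Marco in 8. In HFD against NC, Id3 was higher (log2 fold change 1.76, SE 0.46) and Adgre1 was lower (-1.05, SE 0.38), and Id3 was also higher with DPI than in NC (1.17, SE 0.44). The KC markers summed to 368 and 376 CPM in NC, 545 to 1050 with vehicle and 422 to 643 with DPI. Their sum was thus higher in both HFD groups than in NC, with no overlap. Of the 7 tested, 3 had positive and 4 negative log2 fold changes in HFD against NC. The 9 monocyte markers had counts in every library and summed to 4897 and 5686 CPM in NC, 4721 to 6169 with vehicle and 4496 to 8979 with DPI. Plac8 was the highest of these 9 on average. Of the 9, Ly6c2 was higher (1.04) and Ccr2, a chemokine receptor of monocytes, was lower (-1.23) in HFD than in NC. The median over the 9 was -0.10, and none passed in the other comparisons. Ccr2 had 514 and 359 CPM in NC, 147 to 223 with vehicle, and 713, 296, 204 and 255 in DPI 1 to 4. The part of these in the member differences was not tested. The cells are called KCs here by their sort and by the study's name for them, not by these markers. Levels are those of the whole sorted population. Hepatocyte markers summed to 743 to 1778 CPM, of which Hp (529 to 1437 CPM) and Trf (127 to 299 CPM), which myeloid cells also express, made up most, while Alb reached 107 CPM. Stellate cell and fibroblast markers summed to 36.9 to 72.8 CPM, most of it Ecm1 (33.7 to 68.4 CPM), and Col1a2 and Reln had 0 counts in all libraries. In bulk samples like these, fewer cells of a type and less RNA per cell cannot be told apart.

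Complement is a cascade of plasma proteins that tags microbes and cell debris for uptake and can lyse membranes. The classical pathway starts when C1q, a complex assembled from A, B and C chains, binds antibody or debris and activates C1r and C1s, which cut C4 and C2. The alternative pathway runs on C3 itself: factor B (Cfb) joins C3b to form a convertase, and properdin (Cfp) stabilizes it. C1 inhibitor, encoded by Serping1, blocks C1r and C1s. Hepatocytes make most of the C3 in plasma, whereas C1q comes largely from macrophages and properdin from myeloid cells.

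The genes of the 3 C1q chains lie side by side on the minus strand of chromosome 4 in GRCm38 (GENCODE M21), C1qb at chr4:136880129-136886187, C1qc at chr4:136889804-136893065 and C1qa at chr4:136895917-136898803, a stretch of 18675 bases in all. On chromosome 17, Cfb (chr17:34856374-34862518) and C2 (chr17:34862604-34898265) are neighbours, also on the minus strand, and each overlaps the gene Gm20547, which has no row in the count table. C3 lies at chr17:57203970-57228136, Cfp at chrX:20925454-20931555 and Serping1 at chr2:84765387-84775444, all on the minus strand.

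To show the sequence next to the genes whose levels are described, the bases just before the RefSeq transcription start are given for the 4 genes with an entry in the promoter table, on GRCm38.p6 and written 5' to 3' on the minus strand, at chr4:136886201-136886450 for C1qb, chr4:136893066-136893164 for C1qc (without the part that lies inside the GENCODE gene), chr17:57228137-57228386 for C3 and chrX:20931556-20931805 for Cfp. Capitals mark matches to 3 of the 7 motifs that were searched on both strands of the 250 bases before each start: GAGGAA, a core bound by PU.1 and other ETS factors, a loose NF-kB pattern, and TTNCNNAA, a loose C/EBP pattern.
C1qb: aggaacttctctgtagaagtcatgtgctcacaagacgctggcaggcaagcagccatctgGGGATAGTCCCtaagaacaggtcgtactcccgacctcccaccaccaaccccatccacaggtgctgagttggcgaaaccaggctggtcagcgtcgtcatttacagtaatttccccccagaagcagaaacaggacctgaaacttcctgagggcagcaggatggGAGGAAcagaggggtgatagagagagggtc
C1qc: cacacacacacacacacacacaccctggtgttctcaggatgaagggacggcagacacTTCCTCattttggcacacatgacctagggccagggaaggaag
C3: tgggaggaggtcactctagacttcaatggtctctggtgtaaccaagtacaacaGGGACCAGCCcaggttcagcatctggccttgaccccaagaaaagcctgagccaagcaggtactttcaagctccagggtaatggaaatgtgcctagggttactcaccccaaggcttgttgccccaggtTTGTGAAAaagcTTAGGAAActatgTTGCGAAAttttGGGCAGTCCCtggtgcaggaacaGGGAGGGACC
Cfp: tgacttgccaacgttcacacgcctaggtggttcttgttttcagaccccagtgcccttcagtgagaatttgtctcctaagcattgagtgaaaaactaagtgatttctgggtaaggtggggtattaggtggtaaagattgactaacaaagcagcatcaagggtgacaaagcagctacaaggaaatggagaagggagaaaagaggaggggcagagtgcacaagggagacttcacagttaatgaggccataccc
The C1qb sequence held GAGGAA 30 bases before the start and overlapping NF-kB patterns on both strands, 191 and 190 bases before it. C1qc held GAGGAA on the opposite strand, 193 bases before its start. The C3 sequence held 3 matches to the NF-kB pattern and 4 to the C/EBP pattern, a pair of the latter being the 2 strands of the same bases 45 bases before the start. Further matches in C1qc, to the NF-kB pattern 40 bases and to the C/EBP pattern 81 bases before the RefSeq start, lie outside the bases printed. Among 32817 mouse promoters of the same length, GAGGAA was found in 23.3%, the NF-kB pattern in 17.6% and TTNCNNAA in 36.8%, so matches are common. The other motifs, the interferon-stimulated response element (in 2.97% of promoters), TTCNNNGAA (STAT, 7.01%), TGCTGAC (MAF, 3.81%) and TATAAA (12.4%), had no match in the 4 sequences, and Cfp matched none of the 7.

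The first comparison asks how KCs of HFD-fed mice given vehicle differ from KCs of NC-fed mice. Factor B was higher and C1qa and properdin were lower, whereas C1qb, C1qc and C3 did not pass the threshold, and Serping1 had counts in NC only. The threshold follows the study's methods and requires a 2-fold change (1 or more on the log2 scale, in either direction) together with an edgeR p under 0.05 before adjustment. It was passed by 3 of the 6 members with counts in every group, 1 higher and 2 lower. It was also passed by 11.7% of all 11393 genes tested, 7.03% higher and 4.63% lower. The median log2 fold change was -0.75 over these 6 members and 0.03 over all genes. With library size scaling in place of TMM, the median of all genes moved to -0.26 and the calls over all genes from 801 higher and 528 lower to 539 and 933, so that the fold changes below are relative to that shift. No member had an adjusted p under 0.05 in any comparison (Benjamini-Hochberg adjustment of edgeR's quasi-likelihood p), where 0.0614% of all genes did in HFD against NC and 0.00878% in DPI against NC. In DESeq2 and in edgeR's likelihood ratio test, Cfb alone of the 6 did, in HFD against NC. Before adjustment, 13% and 10.7% of all genes had a p under 0.05 in these comparisons. The fitted differences of the 6 members with counts in every group are plotted with their standard errors.

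**Figure D1:**
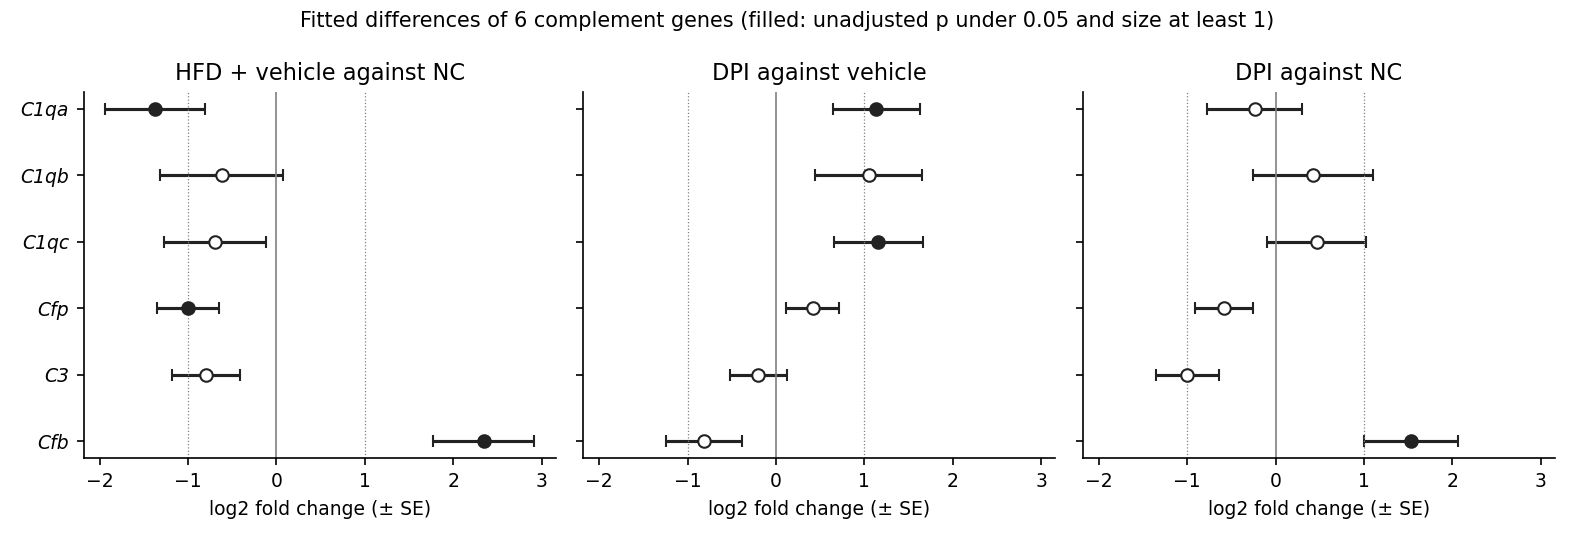
Log2 fold changes (points, x axis) with standard errors (bars) of 6 complement genes in the 3 comparisons, from edgeR's quasi-likelihood fit of 9 libraries. Filled points passed an unadjusted p under 0.05 with a size of at least 1. Cfb stands alone on the right in HFD + vehicle against NC, at 2.34, and the 3 C1q genes lie together near 1 in DPI against vehicle.

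The second comparison asks how DPI changed KCs of HFD-fed mice. C1qa and C1qc were higher with DPI and passed the threshold, and C1qb had a difference of similar size that did not. No member was lower at the threshold. Thus 2 of the 6 members were called, both higher, where 2.84% of all genes were called, 1.5% higher and 1.34% lower. Both are C1q chains, whose genes lie side by side and split the DPI libraries alike, so they are not separate observations. None of the 11393 genes had an adjusted p under 0.05 here, with 470 (4.13%) at an unadjusted p under 0.05, whereas DESeq2 gave 2 genes with an adjusted p under 0.05 and edgeR's likelihood ratio test gave 1. The median log2 fold change was 0.73 over the 6 members with counts in these groups, against 0.04 over all genes. C1qa, C1qb, C1qc and Cfp had positive values (1.14, 1.05, 1.16 and 0.42), whereas C3 (-0.20) and Cfb (-0.82) had negative ones. DPI-treated HFD-fed mice were also set against NC-fed mice, a comparison that shares its libraries with the other 2. Cfb was higher there, 1 of the 6 members, where 9.29% of all genes were called (6.24% higher and 3.05% lower). Library size scaling changed the split of calls over all genes from 171 higher and 153 lower to 196 and 101 for DPI against vehicle, and from 711 and 347 to 546 and 624 for DPI against NC.

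C1qa, which encodes the A chain, had 92.5 and 82.2 CPM in NC 1 and 2, 39.7, 41.5 and 19.8 CPM in vehicle 1 to 3, and 109, 124, 32.5 and 32.1 CPM in DPI 1 to 4. All vehicle libraries lay below both NC libraries, and the DPI libraries lay on both sides, with DPI 1 and 2 above NC and DPI 3 and 4 within the vehicle range. The mean fell from 87.3 ± 7.32 CPM in NC (SD, n = 2) to 33.7 ± 12.0 CPM in the vehicle group (SD, n = 3), with a fitted log2 difference of -1.37 (SE 0.57, unadjusted p = 0.0304, adjusted p = 0.345 in edgeR). The DPI group averaged 74.4 ± 49.0 CPM (SD, n = 4), which gave 1.14 on the log2 scale (SE 0.50, unadjusted p = 0.0387, adjusted p = 0.999 in edgeR) against vehicle. The call against NC was lost without NC 1 (-1.27), NC 2 (-1.42), vehicle 1 (-1.45) or vehicle 3 (-1.05), and the call of DPI against vehicle was lost without vehicle 1 (1.26), vehicle 3 (0.86), DPI 1 (0.89) or DPI 2 (0.77).

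C1qb, the gene of the B chain, had 133 and 221 CPM in NC, 113, 182 and 49.3 CPM with vehicle, and 322, 467, 82.6 and 79.4 CPM with DPI. The groups overlapped in every comparison. Its log2 fold change was -0.62 (SE 0.69) for HFD against NC and 1.05 (SE 0.60, unadjusted p = 0.105) for DPI against vehicle, and the latter passed the threshold without vehicle 2 (1.55), DPI 3 (1.33) or DPI 4 (1.34), and with no filter on low counts. It was 0.48 (unadjusted p = 0.418) without DPI 2 and 0.68 (unadjusted p = 0.326) without vehicle 3. C1qc, the gene of the C chain, had 47.0 and 60.5 CPM in NC, 40.4, 31.2 and 28.0 CPM with vehicle, and 96.7, 140, 28.4 and 32.1 CPM with DPI. All vehicle libraries were below both NC libraries, yet the log2 fold change of -0.69 (SE 0.58) did not pass. Against vehicle, DPI gave 1.16 (SE 0.50, unadjusted p = 0.0386, adjusted p = 0.999 in edgeR), a call lost without vehicle 1 (1.32), vehicle 2 (1.11), vehicle 3 (1.04), DPI 1 (1.00) or DPI 2 (0.66). Against NC, none of the chains passed with DPI, at -0.24 (SE 0.54) for C1qa, 0.43 (SE 0.68) for C1qb and 0.46 (SE 0.56) for C1qc.

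**Figure D2:**
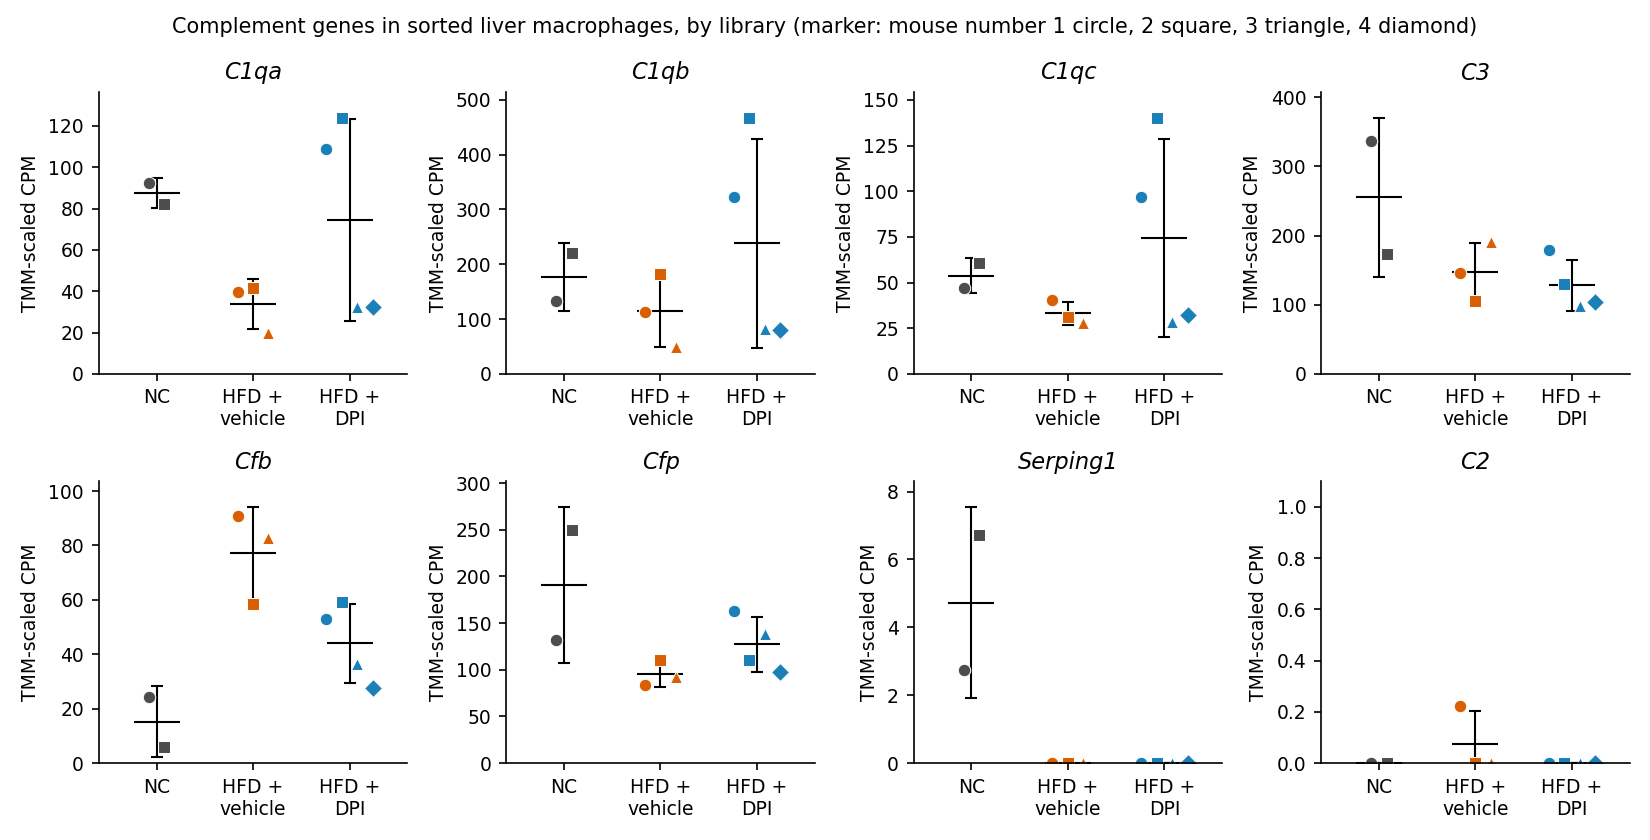
TMM-scaled CPM (y axis, linear, from 0) of the 8 complement genes in the 9 libraries, by group (x axis). Points are libraries with the mouse number as the marker shape, and horizontal lines and bars give the mean and SD of each group. In the 3 C1q panels the DPI libraries split, with DPI 1 and 2 high and DPI 3 and 4 low, while Cfb is lowest in NC and Serping1 has counts in NC only.

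All 3 chains split the DPI libraries alike, whereas in NC and with vehicle the order of the libraries differed between chains. Their summed CPM was 272 in NC 1 and 363 in NC 2, then 193, 255 and 97.1 in vehicle 1 to 3 and 528, 732, 143 and 144 in DPI 1 to 4. The DPI libraries spanned a wider range than the other 2 groups. Divided by exon length, C1qb gave the largest share of the 3 transcripts in every library, 51.8% to 74.9% (median 63.7%), against 17.9% to 37.8% for C1qa (median 24.2%) and 7.23% to 18.4% for C1qc (median 11.7%). The ratio of C1qb to C1qa per length was 1.37 and 2.57 in NC, 2.38 to 4.19 with vehicle and 2.36 to 3.604 with DPI. NC 1 had the lowest ratio of the 9 libraries, and the vehicle and DPI ranges overlapped.

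**Figure D3:**
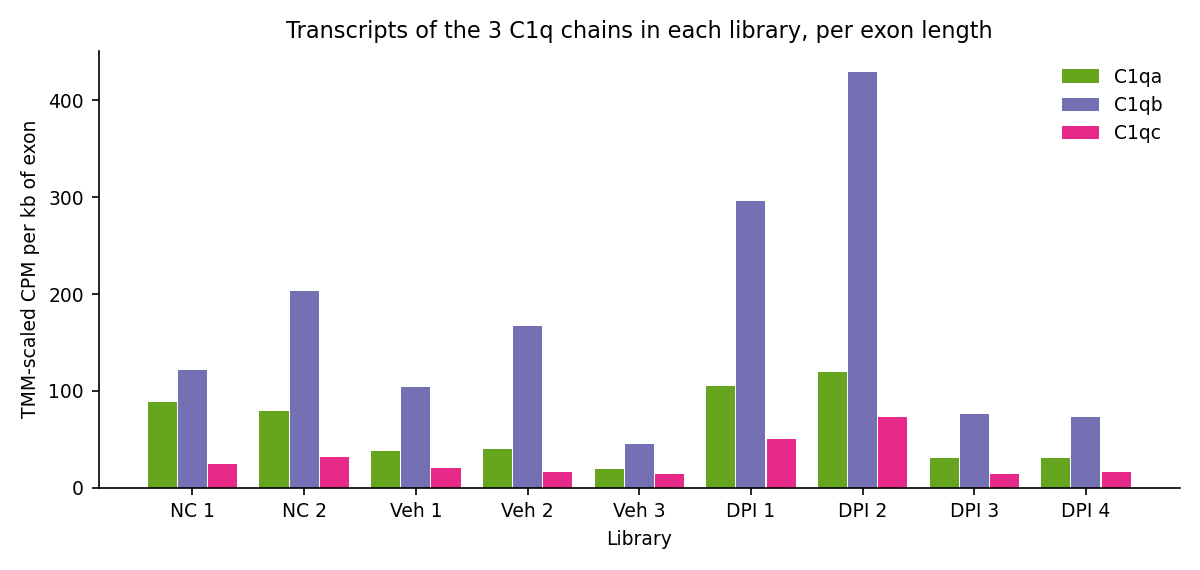
TMM-scaled CPM per kb of exon (y axis, linear, from 0) of C1qa, C1qb and C1qc (bars) in each of the 9 libraries (x axis). C1qb is the tallest bar in every library, and all 3 chains are tallest in DPI 1 and DPI 2.

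Some genes of other cell types were high in the same libraries. Stab2, a scavenger receptor of sinusoidal endothelium, had 38.4 and 51.5 CPM in NC, 0, 0.181 and 1.98 CPM with vehicle, and 37.8, 23.4, 0 and 1.73 CPM with DPI. Clec4g, another endothelial gene, had 71.0 and 93.8 CPM in NC, at most 1.73 CPM with vehicle, and 57.4, 32.3, 0 and 5.31 CPM with DPI. Both were thus high in NC 1, NC 2, DPI 1 and DPI 2, which also had the 4 highest sums of the C1q chains. Vsig4, a receptor for C3 fragments on KCs, had 4 counts in NC 1, 1 in NC 2, none in the vehicle libraries and 49, 5, 0 and 0 in DPI 1 to 4. The 11 KC markers, of which Vsig4 is 1, did not follow this pattern in sum. Their sums were 368 and 376 CPM in NC, 545 to 1050 with vehicle, and 422, 539, 643 and 576 in DPI 1 to 4. Of the 8 endothelial markers, 1 (Pecam1) was higher and 4 (Stab2, Clec4g, Kdr and Ptprb) were lower in HFD than in NC, and Stab2 and Clec4g were higher with DPI than with vehicle. The summed endothelial markers did not follow the same pattern, at 413 to 473 CPM in NC, 383 to 496 with vehicle and 287 to 474 with DPI, and Fcgr2b, which macrophages also express, made up most of the sum in every library. Neutrophil markers ran the other way among DPI libraries, with summed CPM of 815, 864, 3698 and 5617, against 1230 and 3158 in NC and 2530 to 3902 with vehicle. Of the 9 neutrophil markers, 3 (Ngp, Camp and Ltf) were higher with DPI than with vehicle, whereas 5 of the 9 had a negative log2 fold change (median -0.15), among them S100a8 and S100a9, the most abundant of the list. B cell markers summed to 15.8 and 79.4 CPM in NC, 109 to 201 with vehicle, and 48.0, 19.7, 122 and 460 in DPI 1 to 4. Of the 8, Cd79b alone was called in HFD against NC. All 8 log2 fold changes were positive there (median 1.59), but 5 of the 8 genes had 0 counts in NC 1, so this is a description. Dendritic cell markers summed to 55.7 and 108 CPM in NC, 196 to 310 with vehicle, and 123, 138, 257 and 409 in DPI 1 to 4. Both sums were thus higher with vehicle than in NC, with no overlap. Ccr7, at 0 and 46.7 CPM in NC and 115 to 276 CPM with vehicle, made up most of the dendritic sum in the vehicle libraries and was the only one of these markers called in HFD against NC, where 3 of the 7 tested had positive and 4 negative log2 fold changes (median -0.17). The part of these cells in the C1q differences was not tested.

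Cfb, the gene of factor B, had 24.4 and 5.98 CPM in NC, 90.8, 58.4 and 82.8 CPM with vehicle, and 53.0, 59.1, 36.4 and 27.7 CPM with DPI. Every library of HFD-fed mice lay above both NC libraries, and the DPI libraries lay below the vehicle libraries except for DPI 2, which was just above vehicle 2. Of all genes, 27.5% had vehicle and NC libraries that did not overlap, 20.2% had DPI and NC libraries that did not, and 5.85% had DPI and vehicle libraries that did not. Among the 6 members with counts in every group, Cfb was higher and 3 were lower without overlap in the first, Cfb was higher in the second, and 0 stood apart in the last. NC averaged 15.2 ± 13.03 CPM (SD, n = 2), the vehicle group 77.3 ± 16.9 CPM (SD, n = 3) and the DPI group 44.0 ± 14.5 CPM (SD, n = 4). The log2 fold change for HFD against NC was 2.34 (SE 0.57, unadjusted p = 0.00116, adjusted p = 0.140 in edgeR), a 5.08-fold difference, and it passed the threshold under all 19 alternatives. Its adjusted p was 0.00472 in DESeq2 and 0.0100 in edgeR's likelihood ratio test, and 0.0587 to 0.327 under the other alternatives. The NC libraries differed from each other, and the log2 fold change was 1.69 without NC 2 and 3.70 without NC 1. For DPI against vehicle it was -0.82 (SE 0.43, unadjusted p = 0.0790), which did not pass. For DPI against NC it was 1.53 (SE 0.53, unadjusted p = 0.0128, adjusted p = 0.367 in edgeR), a call lost without NC 2 (0.88).

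C3, the protein on which all complement pathways meet, had 337 and 174 CPM in NC, 146, 105 and 191 CPM with vehicle, and 179, 130, 98.0 and 104 CPM with DPI. NC 1 was the highest library, and NC 2 lay within the range of the HFD libraries. The log2 fold change was -0.80 (SE 0.38, unadjusted p = 0.0566) for HFD against NC, -0.20 (SE 0.32) for DPI against vehicle and -0.998 (SE 0.36, unadjusted p = 0.0146) for DPI against NC, just under the limit of size. Without NC 1 it was -0.24 (unadjusted p = 0.610) in HFD against NC and -0.43 (unadjusted p = 0.332) in DPI against NC. It passed without NC 2 in HFD against NC (-1.17) and in DPI against NC (-1.37), and without DPI 1 in the latter (-1.20). It also passed with library size scaling in both (-1.13 and -1.22), and in DPI against NC with RLE scaling or DESeq2 (-1.03 each). The hepatocyte genes Alb, Ttr and Serpina1a were lower in HFD than in NC, and 9 of the 10 hepatocyte markers had negative log2 fold changes, with sums of 1357 and 1625 CPM in NC, 883 to 1305 with vehicle and 743 to 1778 with DPI. The part of hepatocyte RNA in the C3 values was not tested.

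Cfp, the gene of properdin, had 132 and 250 CPM in NC, 83.7, 110 and 92.2 CPM with vehicle, and 163, 110, 138 and 97.9 CPM with DPI. The vehicle libraries lay below both NC libraries, and the DPI libraries overlapped with both groups. The log2 fold change was -1.0002 (SE 0.35, unadjusted p = 0.0127, adjusted p = 0.287 in edgeR) for HFD against NC, which is at the limit of the threshold. The call was lost in 8 of 19 alternatives, among them without NC 2 (-0.44), vehicle 1 (-0.87), vehicle 3 (-0.92) or DPI 2 (-0.96). It was 0.42 (SE 0.30) for DPI against vehicle and -0.58 (SE 0.33) for DPI against NC.

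Factor B and its partner C3 were also set side by side, as a description with no test. The ratio of Cfb to C3 in CPM was 0.0724 in NC 1 and 0.0343 in NC 2, then 0.623, 0.554 and 0.434 in vehicle 1 to 3 and 0.296, 0.453, 0.371 and 0.265 in DPI 1 to 4. Every library of HFD-fed mice was above both NC libraries, and the DPI range overlapped with the vehicle range at DPI 2 only. The ratio of Cfp to C3 overlapped across the groups, at 0.391 and 1.44 in NC, 0.484 to 1.05 with vehicle and 0.844 to 1.41 with DPI.

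Serping1 was detected in NC only, with 15 counts in NC 1 and 36 in NC 2 (2.73 and 6.72 CPM), and had 0 counts in all 7 libraries of HFD-fed mice. With 3 counts per library set as the limit that a count of 0 allows, it was at least 7.26-fold lower with vehicle than in NC and at least 9.16-fold lower with DPI than in NC. Without NC 2 these limits were 4.20-fold and 5.29-fold. The hepatocyte markers Alb, Ttr and Serpina1a were also called lower in HFD than in NC, and 1 of the 10 had a positive log2 fold change. The part of hepatocyte RNA in the Serping1 counts was not tested. It passed the filter only through NC, the group in which it was detected, so no test of it is given. C2, which is cut by C1s in the classical pathway, had 1 count in vehicle 1 and 0 in the other 8 libraries, so that no difference was detectable at this depth.

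Levels of different genes were compared per kb of exon. In NC the order was C1qb (162 ± 57.3 CPM per kb), Cfp (110 ± 48.1), C1qa (84.0 ± 7.03), C3 (49.7 ± 22.4), C1qc (27.8 ± 4.95) and Cfb (5.38 ± 4.61), and only C1qa and C3, and C1qc and Cfb, were neighbours whose means differed by more than their SDs together. With vehicle it was C1qb (106 ± 61.03), Cfp (55.0 ± 7.88), C1qa (32.4 ± 11.6), C3 (28.6 ± 8.29), Cfb (27.4 ± 5.97) and C1qc (17.2 ± 3.33), and Cfp stood apart from C1qa, and Cfb from C1qc, by the same measure. Cfb was thus the lowest of the 6 in NC and close to C3 with vehicle. With DPI the order was C1qb (219 ± 175), Cfp (73.4 ± 16.9), C1qa (71.5 ± 47.1), C1qc (38.5 ± 28.0), C3 (24.9 ± 7.13) and Cfb (15.6 ± 5.14), and no neighbours stood apart by this measure. The measure compares group means and ignores that the genes share libraries. Within every DPI library, C1qa was above C1qc and C3 was above Cfb. Within both NC libraries, C1qb was above Cfp and C3 was above C1qc. Serping1 averaged 2.03 ± 1.21 in NC, a difference from Cfb within their SDs together, and was above Cfb in NC 2 (2.89 against 2.12).

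The rest of the complement system was followed in lists of 45 other genes, of which 44 were in the table and 22 passed the filter. Of these, C1ra, Cr2 and Vtn had at most 3 counts in every library of a group, so no test of them is given. For HFD against NC, 0 of the other 19 were higher and 2 were lower (C4b and Fcna, the only 2 with an unadjusted p under 0.05), 10.53% against 11.7% of all genes, with a median log2 fold change of -0.63. For DPI against vehicle, 0 passed in edgeR's quasi-likelihood test and in DESeq2 and 1 (Clu) in edgeR's likelihood ratio test, 0 had an unadjusted p under 0.05 in the first, and the median was 0.03. For DPI against NC, 1 was lower (C4b), 5.26% against 9.29% of all genes. Over the alternatives the number called ranged from 0 to 4, 0 to 3 and 0 to 3 in the 3 comparisons, with 0 in the first without vehicle 3. These 19 genes are plotted with their standard errors.

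**Figure D4:**
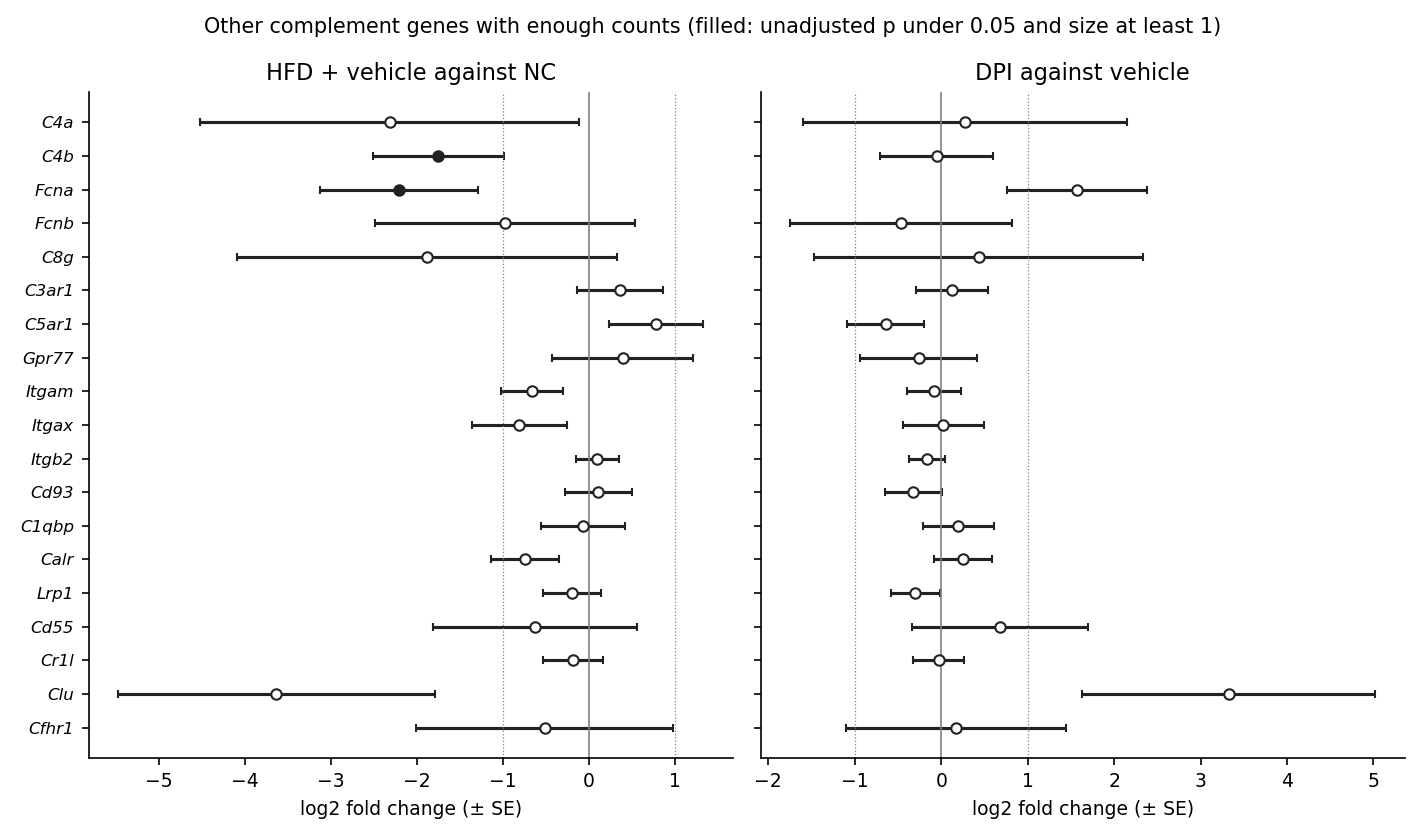
Log2 fold changes (points, x axis, scaled separately) with standard errors (bars) of 19 other complement genes for HFD + vehicle against NC (left) and DPI against vehicle (right), from edgeR's quasi-likelihood fit. Filled points passed an unadjusted p under 0.05 with a size of at least 1. C4b and Fcna are filled on the left, where no shown gene is called higher, and no point is filled on the right. Gpr77 is the C5a receptor gene also named C5ar2.

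Among the genes of the classical and lectin pathways, 4 of 12 were tested with counts in every group, and 2 were lower in HFD than in NC. Of the others, C1s, Colec11 and Masp2 had counts in NC 2 (5.79, 7.10 and 8.59 CPM) but none in NC 1 or the vehicle libraries. C1ra, a gene of the C1r protease, had 0 counts in NC 1 and 3 in NC 2, but 18, 23 and 26 in vehicle 1 to 3 and 76, 16, 17 and 14 in DPI 1 to 4. It passed the filter through the libraries of HFD-fed mice, in which it is high, so these counts are a description. C4b, a gene of C4, had 22.2 and 19.6 CPM in NC, 9.99, 3.45 and 5.20 CPM with vehicle, and 7.36, 10.2, 4.64 and 2.04 CPM with DPI. Its 7 HFD libraries were all below NC, with log2 fold changes of -1.75 (SE 0.76) with vehicle and -1.80 (SE 0.70) with DPI. The first was lost without NC 1, NC 2, vehicle 2 or vehicle 3 (-1.81 to -1.46) and the second without NC 1 (-1.70) or DPI 3 (-1.70). Both were also lost with a replicate block (-1.60 and -1.33). Reads may be split between C4b and its near-identical copy C4a. Fcna, the ficolin of macrophages, had 25.3 and 8.40 CPM in NC, 2.44, 6.17 and 2.23 CPM with vehicle, and 12.2, 7.81, 21.5 and 1.84 CPM with DPI. Its log2 fold change was -2.21 (SE 0.92) for HFD against NC, lost without NC 1 (-1.19), vehicle 1 (-1.93) or vehicle 3 (-1.90), and 1.57 (SE 0.81) for DPI against vehicle. Fcnb, its relative, averaged 4.81 CPM and passed in no comparison. The lectins Mbl1 and Mbl2 had 0 counts throughout.

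Most of the other genes of the alternative and terminal pathways had few counts. Factor D (Cfd), C7 and C8b had 0 counts in every library, and C9 had 1. The 3 highest of the 8 genes, C8g, Hc (C5) and C6, averaged 1.18, 0.382 and 0.302 CPM, and only C8g, with up to 40 counts in a library and 0 in 3, was tested, with no call. In contrast, 10 of 12 receptor genes were tested with counts in every group and none passed in any comparison, with median log2 fold changes of 0.01, -0.12 and -0.14, and only Itgam, in DPI against NC (-0.74, SE 0.34), had an unadjusted p under 0.05. Itgb2 and Itgam, which encode the chains of complement receptor 3, averaged 469 and 146 CPM and had log2 fold changes of 0.10 (SE 0.25) and -0.66 (SE 0.36) for HFD against NC. Lrp1, a scavenger receptor that also binds C1q, averaged 365 CPM. For DPI against vehicle these 3 lay between -0.30 and -0.08. The receptors of the C3a and C5a fragments, C3ar1 and C5ar1, had log2 fold changes of 0.36 (SE 0.50) and 0.78 (SE 0.55) for HFD against NC, and 0.12 (SE 0.42) and -0.64 (SE 0.45) for DPI against vehicle.

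Among the regulators, 4 of 13 were tested with counts in every group, and all 4 had negative log2 fold changes for HFD against NC (median -0.57), of which none passed in edgeR's quasi-likelihood test and none had an unadjusted p under 0.05. Vtn, which encodes vitronectin and is mainly a hepatocyte gene, had 3 and 28 counts in NC, 0 with vehicle, and 33, 1, 0 and 4 in DPI 1 to 4. It was at least 4.44-fold lower with vehicle than in NC, a limit that rests on NC 2, since NC 1 alone, at 0.546 CPM, was under the mean floor of the vehicle libraries, 0.651 CPM. Clu, the gene of clusterin, had 1.64 and 52.3 CPM in NC, 2.66, 0 and 3.96 CPM with vehicle, and 8.21, 76.8, 3.90 and 0 CPM with DPI, and all groups overlapped. It passed under several alternatives in HFD against NC and in DPI against vehicle. Among them, in both, were no filter on low counts, the likelihood ratio test, only the 2 groups compared, leaving out DPI 4, and thinning. Cr1l, the gene of the membrane regulator Crry and the highest of the list at 45.3 CPM, had log2 fold changes of -0.19 (SE 0.35) and -0.03 (SE 0.29) in the first 2 comparisons. Cd55, the gene of decay-accelerating factor, averaged 9.79 CPM and had -0.63 (SE 1.19) and 0.68 (SE 1.02) in the same comparisons.

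Of 10 genes that are commonly found with C1q in tissue macrophages, Aif1 was higher and 2 were lower with HFD than with NC (median log2 fold change -0.12), and none passed for DPI against vehicle in edgeR's quasi-likelihood test, where Selenop alone had an unadjusted p under 0.05. Aif1 had 44.1 and 33.8 CPM in NC, 135, 81.1 and 131 CPM with vehicle, and 69.6, 132, 46.4 and 48.4 CPM with DPI, a log2 fold change of 1.57 (SE 0.48) for HFD against NC. Selenop, the gene of selenoprotein P, had 561 and 867 CPM in NC, 229, 307 and 264 CPM with vehicle, and 935, 469, 414 and 286 CPM with DPI. Its log2 fold change was -1.42 (SE 0.41) for HFD against NC, lost without NC 2 (-1.04), and 0.98 (SE 0.36, unadjusted p = 0.0167) for DPI against vehicle, and its highest DPI library was DPI 1. Maf, a transcription factor of macrophages, was lower in HFD than in NC (-1.52, SE 0.66) and with DPI than in NC (-1.40, SE 0.61), and its calls were lost without single libraries such as NC 1 (-0.95 and -0.83). Aif1 was thus called higher in the comparison in which C1qa was called lower, whereas Selenop and Maf were called lower there, as C1qa was.

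Lastly, the genes whose log2 CPM was most like that of the members over the 9 libraries were listed by Pearson's r, which is a description over libraries that share depth and cell makeup. For the mean of the 3 C1q chains they were Abi3 (r = 0.974), Lrrc25 (0.943) and Oxct1 (0.941). For Cfb they were Nup205 (0.984), Wdr44 (0.963) and Lgals3bp (0.959), and for Cfp they were Degs1 (0.950), Pelo (0.948) and Tmem59 (0.947). Pelo had 0 to 49 counts per library and Nup205 had 2 to 67, whereas Lgals3bp had 90 or more.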

How the data were processed

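Liver F4/80+CD11b+ cells of 9 mice were profiled by polyA RNA-seq. Per the study's methods, the authors aligned reads to the mouse genome mm10 and computed gene counts with bowtie2 2.2.3 and RSEM 1.2.15. The submitters' processing notes name TopHat2 and edgeR with the same build, and which aligner made the deposited table is not settled. The deposited file holds raw counts per gene, as whole numbers that were not normalized, with 1 column per library, and every column was matched to a sample by its name. Whether counting used strand is not given in the sources used here. Library totals were 3534325 to 15585775, so that 3 counts correspond to 0.192 to 0.849 CPM, and such limits cover counting error only.

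Counts were filtered with filterByExpr, scaled by TMM and fitted in edgeR 4.0.16 (limma 3.58.1, R 4.3.3) by the quasi-likelihood method, with all 9 libraries in 1 fit of 3 groups. The labels give separate mice for the libraries. SE is the size of the log2 fold change divided by the square root of the F statistic. For likeness, log2 CPM used a prior count of 2. Lengths are union exon lengths from GENCODE M21. Promoters came from RefSeq (GRCm38.p6), where 4 of the 8 members had an entry. Figures were drawn with matplotlib 3.10.9. The test was checked on counts simulated with 1 dispersion (0.423) for all genes, which differs from the data. Of genes changed 2-fold, 18.8% were called in HFD against NC, 23.3% in DPI against vehicle and 19.1% in DPI against NC. Unchanged genes called at the same threshold numbered 445 to 494 in DPI against vehicle, where 324 genes were called in the data. They numbered 459 to 532 in HFD against NC and 444 to 504 in DPI against NC. Counts of members called leave out Serping1, which passed the filter through NC only. Likewise, counts over the other complement genes leave out those with at most 3 counts in every library of a group, a rule set after their values were seen. Alternatives changed the scaling, the filter, the test (DESeq2 1.42.0 or the likelihood ratio test), the samples in the fit, Rn45s, a replicate block and single libraries, and thinning to the smallest depth was added after seeing the data.

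The members and the lists were chosen with earlier results of these data known. Named genes were the 8 members, other complement genes and genes found with C1q that passed the threshold, the 3 most abundant per complement list, the 3 genes most like the C1q chains, Cfb and Cfp, and selected cell markers. Others, such as Fcgr2b, C3ar1 and C5ar1, were named after their values were seen. A gene of the regulator list is not reported here, and the counts leave it out.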

Additional observations from a re-analysis of the deposited data

How the results depend on the processing

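In HFD against NC, 1329 genes were called, 726 with at least 10 counts required in every sample and 1027 to 2634 without single libraries (2634 without NC 2). Of the members with counts in every group, 3 were called, 1 with a replicate block (Cfb), and 1 to 3 without single libraries (1, Cfb, without vehicle 1 or vehicle 3). In DPI against vehicle, 324 genes were called, 602 with no filter, 202 with at least 10 counts and 187 to 543 without single libraries. Of the members 2 were called, and 0 to 3 without single libraries, 0 of them without vehicle 1, vehicle 3, DPI 1 or DPI 2 and 3 without DPI 3 or DPI 4. In DPI against NC, 1058 genes were called, 527 with at least 10 counts and 830 to 2626 without single libraries (2626 without NC 2), and the 1 member called became 2 with RLE scaling, library size scaling, DESeq2 or a replicate block, and 1 to 2 without single libraries (2 without DPI 1, and C3 in place of Cfb without NC 2). C3 passed with library size scaling in HFD against NC (-1.13) and DPI against NC (-1.22), and with RLE scaling and DESeq2 in the latter (-1.03 each). Directions reversed for C3 in DPI against vehicle (-0.41 to 0.020 without single libraries, 0.020 without vehicle 3), for C1qa in DPI against NC (0.29 with a replicate block, -0.55 to 0.016 without single libraries, positive without DPI 3 at 0.0098 or DPI 4 at 0.016) and for C1qb there (-0.089 to 0.88, negative without DPI 2). The cause was not tested.

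The replicate numbers name different mice, and same-numbered libraries did not deviate together (r = -0.02 to 0.08 over 7 pairs), so the block is an alternative only. With it, the calls over all genes were 610 higher and 287 lower, 150 and 251, and 537 and 281 in the 3 comparisons, and the members called were Cfb in HFD against NC, the 3 C1q chains in DPI against vehicle, and C1qb and Cfb in DPI against NC. Genes with an adjusted p under 0.05 numbered 7, 0 and 1 in the 3 comparisons, 319, 2 and 219 in DESeq2, 280, 1 and 186 in edgeR's likelihood ratio test, and 52, 0 and 22 with no filter. Groups of 2 to 4 libraries limit all of these values.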
